A study of Mus musculus with 4 samples.

Results

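Collagens are secreted or membrane proteins built from 3 chains wound into a triple helix, and each chain is encoded by its own gene. Fibrillar chains assemble into the fibrils that give connective tissue its strength, and chains of type IV form the sheet-like network of basement membranes under endothelium and epithelium and around muscle. Beaded-filament, fibril-associated and multiplexin collagens sit on or between these structures. Around a collecting lymphatic vessel, the wall and its adventitia contain endothelium, contractile muscle, fibroblasts, nerves and the mesothelium of the neighbouring serosa, all of which lie in or on a collagenous matrix.

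All genes named Col, a number, a and a number were taken from the deposited matrix, which gave 44 of 32285 genes. Their raw counts of distinct captured molecules (unique molecular identifiers, UMIs) were summed over cells of each type and scaled to the total of gene UMIs of that type, as CPM. The tissue was collecting lymphatic vessels with the tissue around them from C57BL/6J mice of both sexes, 4 of each, at an age of 12 to 14 weeks; the labels name no genetic or drug treatment. For each mouse the popliteal, inguinal-axillary, mesenteric and superficial cervical vessels were pooled, so the regions cannot be told apart. The 24046 barcodes carry suffixes 1 to 8 that no label ties to a mouse or a sex. The matrix was therefore described as 1 pooled sample, without tests, and females were not compared with males. Intervals are 95% intervals that cover counting error only. Where 3 values by suffix are printed, they are the lowest, the median and the highest over suffixes with at least 5 cells of the type. Suffixes 1 to 4 and 5 to 8 shared no barcode sequence within a set and 44 across the sets.

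Cells were assigned to 15 stromal types by counting canonical marker genes in each cell, a step called gating here. The fibroblast gate (7206 cells) required Pdgfra and further fibroblast markers. It was divided by a single UMI or more of Pi16 (2958 cells), Tcf21 (1035), Tspan11 (1119), Ngfr (161) or Col8a1 (319), with 1283 cells carrying none of these and 331 carrying several. The other gates held 1126 lymphatic muscle cells, 226 vascular muscle cells, 35 pericytes, 879 mesothelial cells, 404 collecting and 59 initial lymphatic endothelial cells and 264 blood endothelial cells. Schwann cells, the glia of peripheral nerves, numbered 84, and there were 141 basal and 161 luminal epithelial cells. Both epithelial gates came from suffixes 1 to 4 alone, as did 157 of the 161 Ngfr fibroblasts. Levels of markers that set a gate follow from its rule and do not check its name. Prox1, required in lymphatic and excluded from blood endothelium, was at 1107 CPM in collecting lymphatic and 0 in blood endothelium. Rgs5, required in pericytes, was at 1645 CPM there. Basal epithelium also held Myh11, a contractile gene, at 1194 CPM. Blood endothelium held the pericyte genes Rgs5 at 312 CPM and Pdgfrb at 77.3 CPM. T and B cells, 623 cells that should make no collagen, served as the background for free RNA. Collagens made up 0.135% of their UMIs.

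The collagen genes share a gene structure that the selection by name did not use. In GENCODE M21 (build GRCm38), 63.9% of the 1916 internal coding exons of the 44 genes had a length divisible by 9 bases, the unit that encodes 1 Gly-X-Y triplet of the helix. The share was 13.7% over the internal coding exons of all other protein-coding genes. Exons of exactly 54 bases made up 24.5% in the collagens and 0.444% elsewhere. Within the family the 54-base exon was common in fibrillar genes (24 in Col3a1, 21 in Col1a1, 33 in Col24a1 and Col27a1) and rare in type IV genes, with 2 in Col4a1 and 1 in Col4a2.

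Several members are neighbours. Col4a4 and Col4a3 lie head to head on chromosome 1 with 71 bases between their annotated starts. Col4a1 (chr8:11198423-11312826, minus strand) and Col4a2 (chr8:11312805-11449287, plus strand) also lie head to head, and their gene models overlap by 22 bases. Col4a6 and Col4a5 are head to head on chromosome X with a gap of 1308 bases. Col6a6, Col6a5 and Col6a4 follow each other on 1 strand of chromosome 9, and Col3a1 and Col5a2 are tail to tail on chromosome 1 with 24614 bases between them. The sources used here do not say whether counting used the strand, so reads from overlapping neighbours and from the related genes Col6a4 to Col6a6 could be shared between them.

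The set of RefSeq starts used here (build GRCm38.p6) held an entry for 35 of the 44 genes. Col1a1, Col2a1, Col4a3, Col5a2, Col9a3, Col12a1, Col14a1, Col22a1 and Col26a1 had no entry in that set. The sequences shown are the 250 bases before the start of a fibrillar gene of fibroblasts that starts in an AT-rich window (Col3a1), one that starts in a GC-rich window (Col5a1), the anchoring-fibril gene of basal epithelium (Col7a1), the transmembrane gene of lymphatic endothelium (Col23a1) and the Schwann cell gene Col28a1, and then the interval shared by Col4a4 and Col4a3. Capitals mark matches on either strand to CCAAT (the letters of the CCAAT box), to TATAAA (a form of the TATA box), to GGGCGG (the core of a GC box) or to TGANTCA (the letters of an AP-1 site). The windows overlap no annotated exon.
Col3a1, chr1:45311288-45311537, plus strand: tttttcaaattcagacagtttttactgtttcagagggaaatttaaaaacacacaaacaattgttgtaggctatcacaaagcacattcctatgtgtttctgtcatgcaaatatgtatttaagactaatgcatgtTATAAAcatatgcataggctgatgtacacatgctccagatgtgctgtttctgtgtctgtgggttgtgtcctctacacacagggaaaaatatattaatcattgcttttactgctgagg
Col5a1, chr2:27886175-27886424, plus strand: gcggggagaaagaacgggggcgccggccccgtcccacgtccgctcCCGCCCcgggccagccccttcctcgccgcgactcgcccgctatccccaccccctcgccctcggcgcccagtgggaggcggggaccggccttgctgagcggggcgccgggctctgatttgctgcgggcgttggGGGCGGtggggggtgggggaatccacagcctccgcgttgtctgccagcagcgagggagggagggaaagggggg
Col7a1, chr9:108953336-108953585, plus strand: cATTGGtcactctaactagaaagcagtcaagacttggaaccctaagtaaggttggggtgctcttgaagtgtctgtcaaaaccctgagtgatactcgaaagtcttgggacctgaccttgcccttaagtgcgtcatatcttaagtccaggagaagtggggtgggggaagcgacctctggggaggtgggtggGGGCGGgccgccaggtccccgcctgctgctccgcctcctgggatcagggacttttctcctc
Col23a1, chr11:51289670-51289919, plus strand: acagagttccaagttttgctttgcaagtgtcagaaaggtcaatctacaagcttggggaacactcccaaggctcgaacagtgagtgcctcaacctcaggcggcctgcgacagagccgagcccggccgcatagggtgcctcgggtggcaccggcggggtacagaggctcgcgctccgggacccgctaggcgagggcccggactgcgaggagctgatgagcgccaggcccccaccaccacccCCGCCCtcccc
Col28a1, chr6:8192618-8192867, minus strand: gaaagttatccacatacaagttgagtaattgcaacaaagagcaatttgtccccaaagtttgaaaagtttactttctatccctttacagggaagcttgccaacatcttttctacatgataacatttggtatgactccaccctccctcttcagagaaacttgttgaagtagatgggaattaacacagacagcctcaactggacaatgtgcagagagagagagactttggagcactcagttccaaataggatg
Col4a4 and Col4a3, chr1:82586850-82586920, plus strand: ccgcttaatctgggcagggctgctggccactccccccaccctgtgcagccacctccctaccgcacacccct

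The GC content was 35.2% in the Col3a1 window, 40.4% in Col28a1, 56.4% in Col7a1, 66.0% in Col23a1 and 76.4% in Col5a1. GGGCGG occurred in 57.9% of the 38 collagen windows and in 32.7% of 32851 windows of all genes. CCAAT occurred in 34.2% of collagen windows against 33.8% of all windows. TATAAA occurred in 13.2% against 12.4%. TGANTCA occurred in 2.63%, which is Col6a1 alone, against 6.75%. Col3a1 and Col5a1 were both highest in fibroblasts, and their windows share none of these matches.

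Across the 15 gates, 35 of the 44 collagen genes reached 10 CPM in at least 1 gate. Over all genes of the matrix 40.6% did. The 35 were 9 of 11 fibrillar genes, 6 of 6 basement membrane genes, 5 of 6 beaded-filament genes, 7 of 9 fibril-associated genes, 3 of 4 transmembrane genes, both multiplexins, Col7a1, Col8a1 and Col28a1. The 9 below 10 CPM everywhere were Col2a1, Col6a4, Col8a2, Col9a1, Col10a1, Col11a2, Col13a1, Col22a1 and Col26a1. Col10a1, known from hypertrophic cartilage, had no UMI in any of the 15 gates, and Col2a1, the main fibrillar chain of cartilage, reached at most 1.38 CPM. The nearest to the threshold below it were Col8a2 at 9.86 CPM and Col13a1 at 9.81 CPM. The nearest above it were Col25a1 in pericytes at 34.3 CPM, which rests on 6 UMIs, and Col4a3 in Ngfr fibroblasts at 36.9 CPM.

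**Figure D1:**
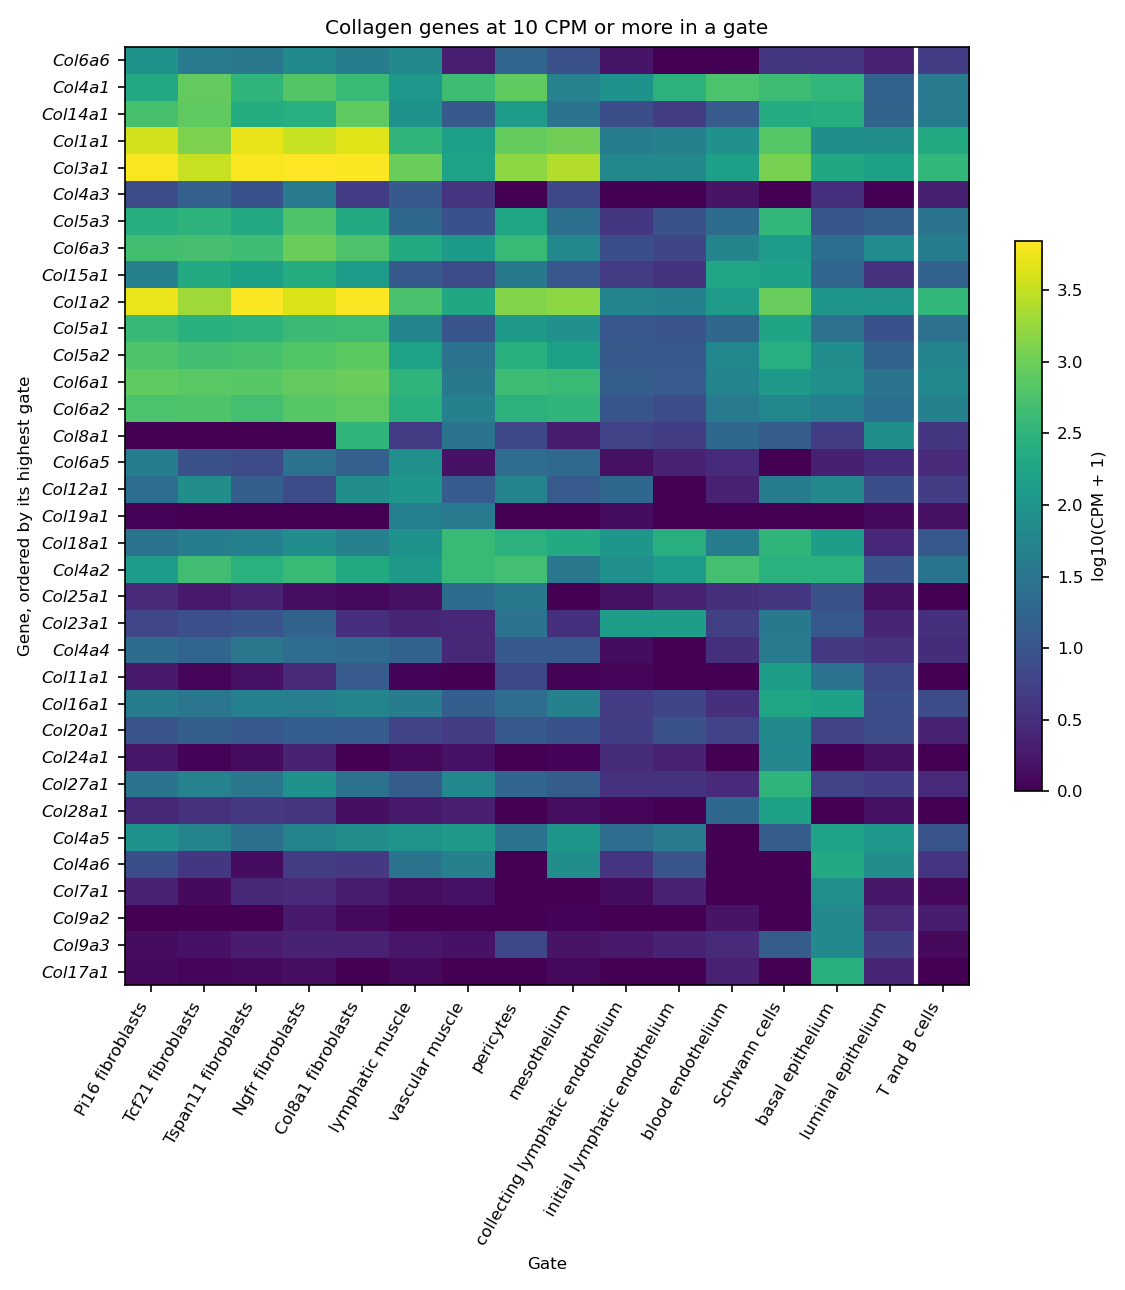
Levels of the 35 collagen genes that reached 10 CPM in a gate (rows, ordered by their highest gate) in the 15 stromal gates and in T and B cells (columns), as log10(CPM + 1). Fibroblast columns are bright for fibrillar and beaded-filament genes, while Col17a1, Col7a1 and Col9a2 are above 10 CPM in basal epithelium alone and Col28a1 in Schwann cells and blood endothelium alone.

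A total of 15 of the 35 genes were highest in a fibroblast subset, against 9.36% of the genes that reached 10 CPM in a gate. Schwann cells were highest for 7 (16.3% of all genes at 10 CPM), basal epithelium for 6 (9.01%), lymphatic muscle for 3 (3.79%), pericytes for 2 (12.7%), and vascular muscle and initial lymphatic endothelium for 1 each (7.07% and 8.04%). A lead of 2-fold or more over the next gate was found for 13 genes, where 20.2% of all genes at 10 CPM had one. One of the 13 is Col8a1, whose UMIs define a subset. The other 12 were Col11a1, Col20a1, Col24a1, Col27a1 and Col28a1 in Schwann cells, Col4a6, Col7a1, Col9a2, Col9a3 and Col17a1 in basal epithelium, Col4a3 in Ngfr fibroblasts and Col6a5 in lymphatic muscle. Over all genes at 10 CPM, such a lead fell to Schwann cells in 4.45%, to basal epithelium in 1.81%, to lymphatic muscle in 0.581% and to Ngfr fibroblasts in 0.168%. The Col6a5 lead was at the mark, 2.00-fold above Pi16 fibroblasts (1.84 to 2.18), and lymphatic muscle was highest in 5 of 8 suffixes. In suffixes 1 to 4 the order was reversed, with 69.6 CPM in lymphatic muscle and 99.1 CPM in Pi16 fibroblasts.

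As a share of all gene UMIs, collagens took 1.94% in fibroblasts (1.30%, 1.99% and 2.22% as the lowest, median and highest suffix). The share ran from 1.22% in Tcf21 fibroblasts to 2.39% in Col8a1 fibroblasts. It was 0.382% in lymphatic muscle, 0.239% in vascular muscle, 0.752% in pericytes, 0.683% in mesothelium, 0.636% in Schwann cells and 0.287% in basal epithelium. In collecting lymphatic endothelium it was 0.0705% (0.0555%, 0.0685% and 0.0995% by suffix), below the pooled 0.135% of T and B cells.

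The fibrillar genes that dominate interstitial matrix were highest in fibroblasts. Col1a1 and Col1a2 encode the 2 chains of type I collagen, and Col3a1 the chain of type III, which forms finer fibrils in vessels and skin. Col1a1 was at 1971, 3643 and 4536 CPM over the 8 suffixes in all fibroblasts and at 263, 299 and 536 CPM in lymphatic muscle. In vascular muscle it was at 88.4, 148 and 222 CPM. The ranges of fibroblasts and muscle did not overlap. T and B cells held 214 CPM of Col1a1 when pooled. The pooled 148 CPM of vascular muscle and the 40.1 CPM of collecting lymphatic endothelium did not exceed this background.

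Against mural cells (lymphatic muscle, vascular muscle and pericytes together, 1387 cells), 15 of the 26 collagen genes at 10 CPM in either group were at least 2-fold higher in fibroblasts, beside 13.0% of all genes. The collagens' median log2 ratio was 1.25 and that of all 9408 genes was -0.14. Fibrillar members led: Col5a3 was 14.1-fold higher (12.4 to 16.0), Col1a1 11.7-fold (11.3 to 12.1), Col1a2 9.95-fold (9.70 to 10.2), Col5a1 7.45-fold and Col3a1 7.02-fold. Type V chains, which Col5a1, Col5a2 and Col5a3 encode, set fibril diameter as minor partners of type I. Each of these ratios was above 1 in 8 of 8 suffixes. Col15a1, a multiplexin that links basement membranes to nearby fibrils, was 12.1-fold higher (10.2 to 14.5), and Col14a1, a fibril-associated collagen, 6.23-fold (5.85 to 6.65). The beaded-filament chains Col6a1, Col6a2 and Col6a3 were 2.82-fold, 2.51-fold and 2.55-fold higher.

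Mural cells were at least 2-fold higher for 5 collagen genes, beside 15.5% of all genes. Col19a1, a fibril-associated collagen that is scarce in adult tissue, had 518 UMIs in mural cells (43.6 CPM) and 5 in 7206 fibroblasts (0.0586 CPM), a ratio of 744 (317 to 2301). It was at 36.2, 45.4 and 55.4 CPM over the suffixes of lymphatic muscle and at 4.76, 30.9 and 117 CPM in vascular muscle, where cells were fewer. Col19a1 was found in 22.2% of lymphatic muscle cells and 0.161% of T and B cells, at median depths of 8657.5 and 4921 UMIs. After thinning every cell to 1000 UMIs the shares were 4.19% and 0.161%. The pericytes, with 175049 UMIs in all, held none. Col4a6, a basement membrane chain known from muscle and epithelium, was 6.83-fold higher in mural cells (5.91 to 7.90). Col18a1, the multiplexin whose C-terminal fragment is endostatin, was 3.27-fold higher (3.08 to 3.47). Col12a1, a fibril-associated collagen, was 2.22-fold higher, and each of these 4 genes was higher in mural cells in 8 of 8 suffixes. Col6a5 was 2.87-fold higher over all cells, but in 6 of 8 suffixes only.

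**Figure D2:**
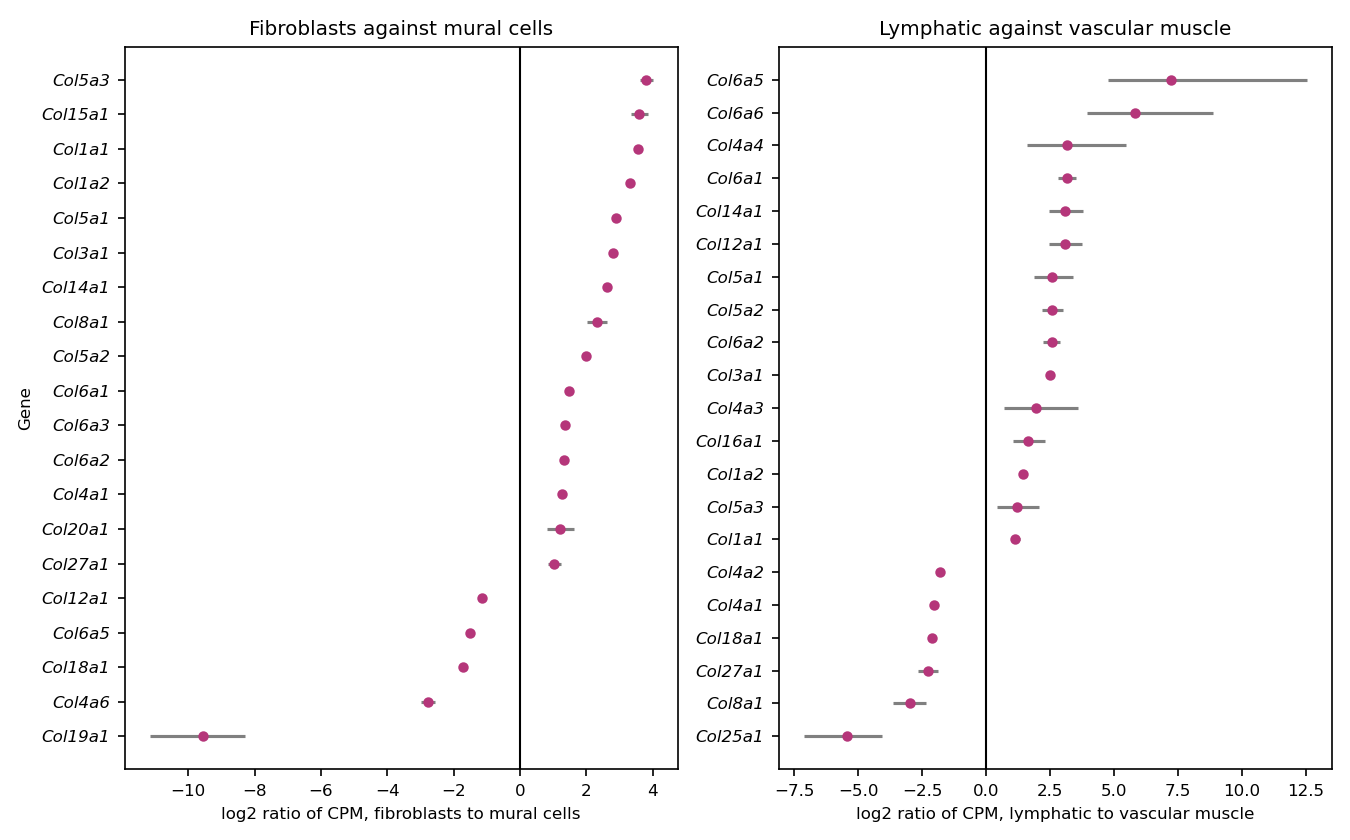
log2 ratios of CPM (points) with 95% counting intervals (lines) for the collagen genes that differed 2-fold or more between fibroblasts and mural cells (left) and between lymphatic and vascular muscle (right). The fibrillar genes other than Col27a1 lie to the right in each panel, Col27a1 lies to the right in the left panel and to the left in the right panel, Col18a1 lies to the left in both, and Col4a1 and Col4a2 are lower in lymphatic than in vascular muscle.

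The 2 kinds of vessel muscle differed in their collagens. Lymphatic muscle contracts spontaneously to propel lymph, and vascular muscle holds arteriolar or venous tone. Lymphatic muscle was at least 2-fold higher for 15 of 26 collagen genes, beside 15.2% of all genes, and vascular muscle for 6, beside 8.29%. The median log2 ratio was 1.32 over these collagens and 0.17 over 9026 genes. Beaded-filament chains were among those higher in lymphatic muscle. Col6a1 was at 277, 321 and 364 CPM over the suffixes in lymphatic muscle and at 17.4, 26.6 and 69.4 CPM in vascular muscle, without overlap. Its ratio was 8.93 (6.98 to 11.6), and that of Col6a2 was 5.91 (4.75 to 7.45). Col6a3, the third chain of the common type VI molecule, was at 220.1 and 125 CPM and did not reach the 2-fold mark.

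The alternative type VI chains marked the contrast most. Col6a5 had 829 UMIs in lymphatic muscle (83.7 CPM, with 37.2, 83.0 and 117 CPM by suffix) and 1 in vascular muscle, a ratio of 152 (27.1 to 5992). Col6a6 had 620 UMIs against 2, a ratio of 56.7 (15.6 to 469). Both were higher in lymphatic muscle in 8 of 8 suffixes. A Col6a5 UMI was present in 32.9% of lymphatic muscle cells and in 0.642% of T and B cells, and in 6.32% and 0 of 622 cells when thinned to 1000 UMIs. Col12a1 was at 65.7, 99.2 and 166 CPM by suffix in lymphatic muscle and at 0, 10.6 and 39.0 CPM in vascular muscle, a ratio of 8.45 (5.55 to 13.5). Lymphatic muscle was the gate with the highest Col12a1 of all 15.

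The fibrillar genes of types I, III and V were also higher in lymphatic than in vascular muscle, by 5.67-fold for Col3a1 (5.06 to 6.37), 5.97-fold for Col5a2, 2.72-fold for Col1a2 and 2.21-fold for Col1a1. Fibroblast markers moved with them. Their summed level was 2353 CPM in lymphatic muscle, 470.2 CPM in vascular muscle and 1997 CPM in T and B cells. Dcn, the abundant fibroblast proteoglycan decorin, was at 1601, 320.5 and 1392 CPM in the same order. The part of free fibroblast RNA in the fibrillar difference was not tested. Measured against T and B cells, lymphatic muscle held 955 against 356 CPM of Col3a1, 168 against 51.5 CPM of Col5a2 and 328 against 214 CPM of Col1a1. Col6a5, Col6a6 and Col12a1 were at 1.92, 4.07 and 4.07 CPM in T and B cells.

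Vascular muscle had more of the basement membrane chains Col4a1 and Col4a2. Col4a1 was at 344, 437 and 570.4 CPM over the suffixes there and at 59.5, 111 and 142 CPM in lymphatic muscle, with no overlap and a ratio of 4.06 (3.70 to 4.45). Col4a2 was 3.52-fold higher (3.20 to 3.86) and Col18a1 4.30-fold higher (3.89 to 4.75), each in 8 of 8 suffixes. Col4a5, another type IV chain, was at 96.7 CPM in lymphatic and 115 CPM in vascular muscle. Col4a6 had suffix medians of 32.0 and 40.1 CPM in the same order. The type IV chains Col4a3 and Col4a4 went the other way at low levels. Their suffix medians were 8.85 and 15.8 CPM in lymphatic muscle and 0 CPM for both in vascular muscle. The remaining genes at least 2-fold higher in vascular muscle were of low level. Col27a1, a fibrillar chain known from cartilage, was 4.85-fold higher (3.72 to 6.33), Col8a1, a short-chain network collagen of vessel walls, 7.84-fold (5.05 to 12.3), and Col25a1, a transmembrane collagen, 42.7-fold, from 39 UMIs against 5 (16.8 to 139).

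The 35 pericytes were at least 2-fold higher than muscle for 11 collagen genes, beside 22.4% of all genes, and lower for 4, beside 10.9%. In suffixes 1 to 4 alone, which held 9 pericytes, the counts were 7 and 2. Col4a1 was at 799.8 CPM against 162 CPM (4.94-fold, 4.13 to 5.87) and Col4a2 at 497 against 160.3 CPM (3.10-fold, 2.47 to 3.84). Col5a3 was 10.9-fold higher (7.29 to 15.8). The summed fibroblast markers were at 4273 CPM in pericytes and 2062 CPM in muscle, with Pdgfra at 0 by the gate's rule, and their part was not tested. Col19a1 had 0 UMIs in pericytes against 44.2 CPM in muscle, at least 2.58-fold lower when 3 counts are taken as the floor.

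Among the fibroblast subsets, Tcf21 fibroblasts were low in both type I genes and high in Col4a1, Col4a2 and Col15a1. Ngfr fibroblasts were near them for these high genes. Pooled Col15a1 was at 241 CPM in Ngfr and 227 CPM in Tcf21 fibroblasts. The suffix medians were 652 and 780.0 CPM for Col4a1 and 420.3 and 470.2 CPM for Col4a2 in the same order. Col1a1 was at 823, 1286 and 1647 CPM over the suffixes in Tcf21 fibroblasts, while the 4 other subsets ranged from 2061 CPM upwards. Compared with the cells of the other 4 subsets, Col1a1 was 3.33-fold lower (3.28 to 3.38) and Col1a2 2.89-fold lower (2.85 to 2.92). Col4a1 was at 722, 780.0 and 1041 CPM by suffix, 3.10-fold higher than in the other subsets (3.02 to 3.18). Col4a2 was 2.60-fold higher, Col15a1 2.75-fold and Col12a1 3.04-fold, all in 8 of 8 suffixes. The other multiplexin, Col18a1, was at 42.3 against 36.6 CPM, and the type IV chains Col4a4 and Col4a5 were at 16.9 against 23.8 CPM and 52.4 against 76.9 CPM, short of the 2-fold mark. In this comparison 4 of 23 collagen genes were higher, beside 3.50% of all genes, and 4 lower, beside 3.26%. In suffixes 5 to 8 alone 7 were higher and 2 lower, and 2 were lower with clusters in place of gates. The other 2 lower genes were Col6a6, by 2.08-fold, and Col6a5, by 4.02-fold but in 5 of 8 suffixes only. Tcf21 fibroblasts also had the lowest Col3a1 of the 5 subsets, at 3351 CPM.

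**Figure D3:**
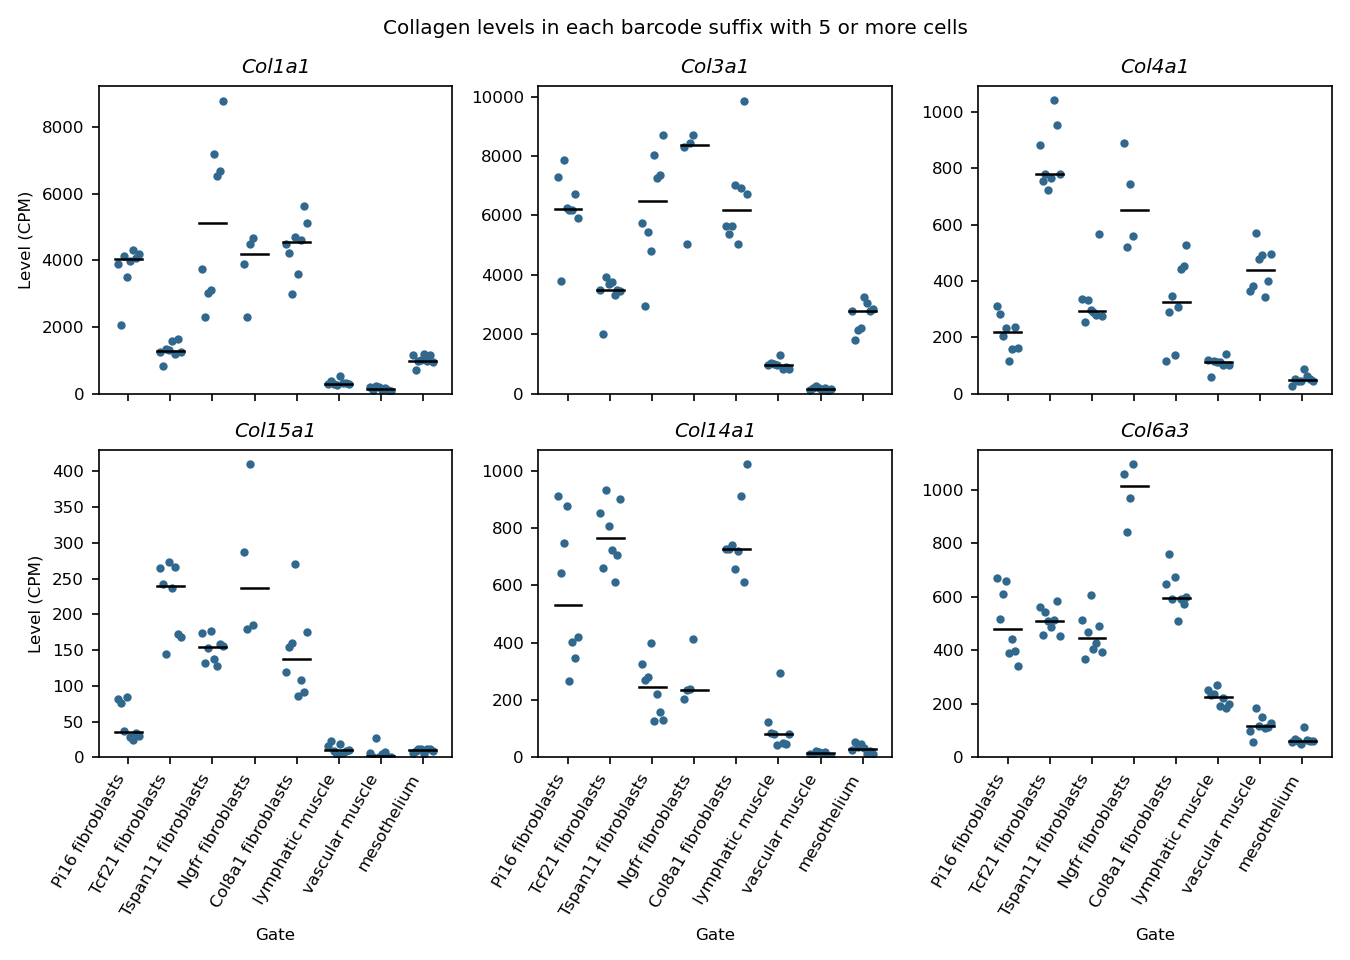
Levels (CPM) of 6 collagen genes in each barcode suffix with 5 or more cells of a gate (points) with the median (line). By the median over suffixes, Tcf21 fibroblasts are lowest of the 5 fibroblast subsets for Col1a1 and highest for Col4a1, and Ngfr fibroblasts are highest for Col6a3, at 843 to 1098 CPM in 4 suffixes.

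Pi16 fibroblasts, whose marker is found in adventitial and perivascular fibroblasts of many organs, were low in Col4a1, Col4a2 and Col15a1. Pi16 and Tcf21 fibroblasts are each part of the other's reference, so their comparisons are not independent. Col4a1 was at 116, 217 and 309.6 CPM over the suffixes, 2.73-fold lower than in the other 4 subsets (2.66 to 2.81), and Col4a2 was 2.75-fold lower. Col15a1 was at 24.2, 35.1 and 84.9 CPM, 4.05-fold lower (3.84 to 4.28). Higher by 2-fold or more were Col6a6 (2.43-fold, 2.27 to 2.60), Col4a5 (2.02-fold, 1.90 to 2.15) and Col6a5 (4.32-fold). Thus 3 genes were higher, beside 1.69% of all genes, and 4 lower, beside 3.28%. With 2 markers required per subset 1 was higher, and with clusters in place of gates 7 were lower. The Col6a5 difference rested on suffixes 1 to 4, where Pi16 fibroblasts had 99.1 CPM. In suffixes 5 to 8 they had 2.61 CPM and Tcf21 fibroblasts 17.5 CPM, so the order was reversed there.

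Over all cells Tspan11 fibroblasts had the highest Col1a1, 1.15-fold above Col8a1 fibroblasts (1.13 to 1.17). It was at 2301, 5132 and 8805 CPM by suffix, and Tspan11 fibroblasts were the highest gate in 4 of 8 suffixes. The lead came from suffixes 5 to 8, at 7243 against 4701 CPM in Col8a1 fibroblasts. In suffixes 1 to 4 Tspan11 fibroblasts were at 3124 CPM, below Col8a1 (3938 CPM), Pi16 (3431 CPM) and Ngfr fibroblasts (3391 CPM). No collagen gene was 2-fold higher in Tspan11 fibroblasts than in the other subsets, beside 2.37% of all genes, and 5 were lower, beside 3.96%. These were Col6a5, Col4a5 (3.21-fold), Col12a1 (2.96-fold), Col14a1 (2.56-fold) and Col6a6 (2.21-fold). Col6a5 was 4.67-fold lower in the pooled cells but lower in 6 of 8 suffixes only. With 2 UMIs of Tspan11 required, 3 collagens were higher, and the number lower was 3 in suffixes 5 to 8 and 8 with 2 markers per subset.

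Ngfr fibroblasts carry the receptor Ngfr that also marks perineural and endoneurial stroma. They were at least 2-fold higher for 6 of 24 collagen genes, beside 2.70% of all genes, and lower for 2, beside 3.63%. Of these cells 157 were in suffixes 1 to 4, and within those suffixes alone 3 of the 6 stayed past 2-fold. The log2 ratios there were 0.84 for Col5a3, 0.77 for Col15a1 and 0.80 for Col18a1, against 1.26, 1.19 and 1.05 over all suffixes. Col5a3 was at 526, 632 and 706 CPM in the 4 suffixes with enough cells, 2.39-fold higher (2.26 to 2.53). Col27a1 was 2.81-fold higher (2.43 to 3.25), Col15a1 2.28-fold and Col18a1 2.07-fold. Col4a3, a chain of the specialised network of glomerular and alveolar basement membranes, was at 36.9 CPM, 4.54-fold higher (3.54 to 5.75), but ranged from 0 to 66.8 CPM over the suffixes. Col23a1 was at 15.7 CPM from 34 UMIs. Col12a1 and Col14a1 were the 2 lower genes, by 5.33-fold (3.22 to 9.53) and 2.18-fold. Col6a3, at 967 CPM, was 1.64-fold above the next gate (1.55 to 1.73), and was the highest of the gates in 4 of 4 suffixes.

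Col8a1 fibroblasts, chosen by Col8a1 itself, held the highest collagen share over pooled cells. By suffix the median share was 2.47% in Ngfr fibroblasts (4 suffixes), 2.35% in Col8a1 and 2.22% in Tspan11 fibroblasts. Of the 319 Col8a1 fibroblasts 234 were in suffixes 5 to 8. Besides Col8a1, 2 genes were at least 2-fold higher than in the other subsets, beside 2.36% of all genes, and none was lower, beside 1.87%. In suffixes 1 to 4 alone 1 was higher and 2 lower, in suffixes 5 to 8 alone 4 were higher, and with clusters in place of gates 5 were lower. Col12a1 was at 77.8 CPM, 2.38-fold higher (2.13 to 2.66) and higher in 6 of 8 suffixes. Col11a1, a minor fibrillar chain, had 56 UMIs (11.8 CPM), a ratio of 16.9 (11.2 to 25.6). The log2 ratio of Col11a1 turned to -2.41 when subsets needed 2 markers, with Adamts16 in place of Col8a1, and to -4.45 when clusters replaced gates. Col5a2, Col6a1 and Col6a2 were highest in this gate at 747, 925 and 774 CPM, within 1.18-fold of the next gate. Col6a1 ranged from 691 to 925 CPM over the 5 subsets.

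Mesothelium, the sheet that lines body cavities and covers the mesentery, had a fibrillar profile at a lower level than fibroblasts. Col3a1 was at 1795, 2781 and 3260.1 CPM over the suffixes and Col1a1 at 712, 992 and 1201 CPM. Its summed fibroblast markers were at 16722 CPM, and Dcn alone was at 15277 CPM, so fibroblast RNA and mesothelial expression of these genes were not separated. Of the basement membrane chains, Col4a5 was at 106 CPM and Col4a6 at 79.7 CPM, the second highest Col4a6 of the gates, whereas Col4a1 was only 49.1 CPM, the lowest but one. Col18a1 was at 220.1 CPM. Mesothelium had few Col6a3 UMIs for its Col6a1: 810 against 5215.

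Lymphatic endothelium was at least 2-fold higher than blood endothelium for 4 of 19 collagen genes, beside 9.51% of all genes, and lower for 13, beside 13.6%. After the T and B cell level was subtracted 6 were lower. The median log2 ratio of the collagens was -1.94, and of 9324 genes -0.01. Col4a1 was at 349, 466 and 775 CPM over the suffixes of blood endothelium and at 59.0, 88.4 and 154 CPM in collecting lymphatic endothelium, which did not overlap. Pooled over lymphatic endothelium, Col4a1 was 4.95-fold lower (4.49 to 5.45) and Col4a2 5.56-fold lower (4.99 to 6.20). Rgs5 and Pdgfrb in the blood endothelial gate moved with this difference, and their part was not tested. Col15a1 was at 116, 164 and 411 CPM in blood and at 1.44, 4.12 and 5.90 CPM in collecting lymphatic endothelium, a ratio of 52.0 (34.3 to 82.4). Pericytes held less Col15a1, 34.3 CPM, than blood endothelium. Col28a1 had 31 UMIs in blood and 1 in lymphatic endothelium, a ratio of 127 (21.1 to 5166). The fibrillar chains Col1a1, Col1a2 and Col3a1 were also higher in blood endothelium, by 2.10-fold to 2.47-fold, but both endothelia lay below T and B cells for them. The same held for the levels of Col5a3, Col6a1 and Col6a2, which lay below T and B cells in both endothelia.

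Lymphatic endothelium was marked by Col23a1, a transmembrane collagen. It was at 55.8, 116 and 223 CPM by suffix in collecting, at 79.2, 267 and 468 CPM in initial and at 0, 1.47 and 13.0 CPM in blood endothelium. The ratio of lymphatic to blood endothelium was 30.7 (14.9 to 76.7), and the lymphatic value was higher in 8 of 8 suffixes. A UMI was present in 53.7% of collecting lymphatic endothelial cells against 1.44% of T and B cells, at median depths of 8757 and 4921 UMIs, and in 10.9% against 0 of 622 cells after thinning. Col18a1 was 3.06-fold higher than in blood endothelium (2.38 to 4.00). Col12a1 was 13.8-fold higher, from 113 UMIs against 2 (3.74 to 115). Col4a5 had 166 UMIs in lymphatic and none in 264 blood endothelial cells, at least 13.5-fold higher with the floor of 3 counts.

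**Figure D4:**
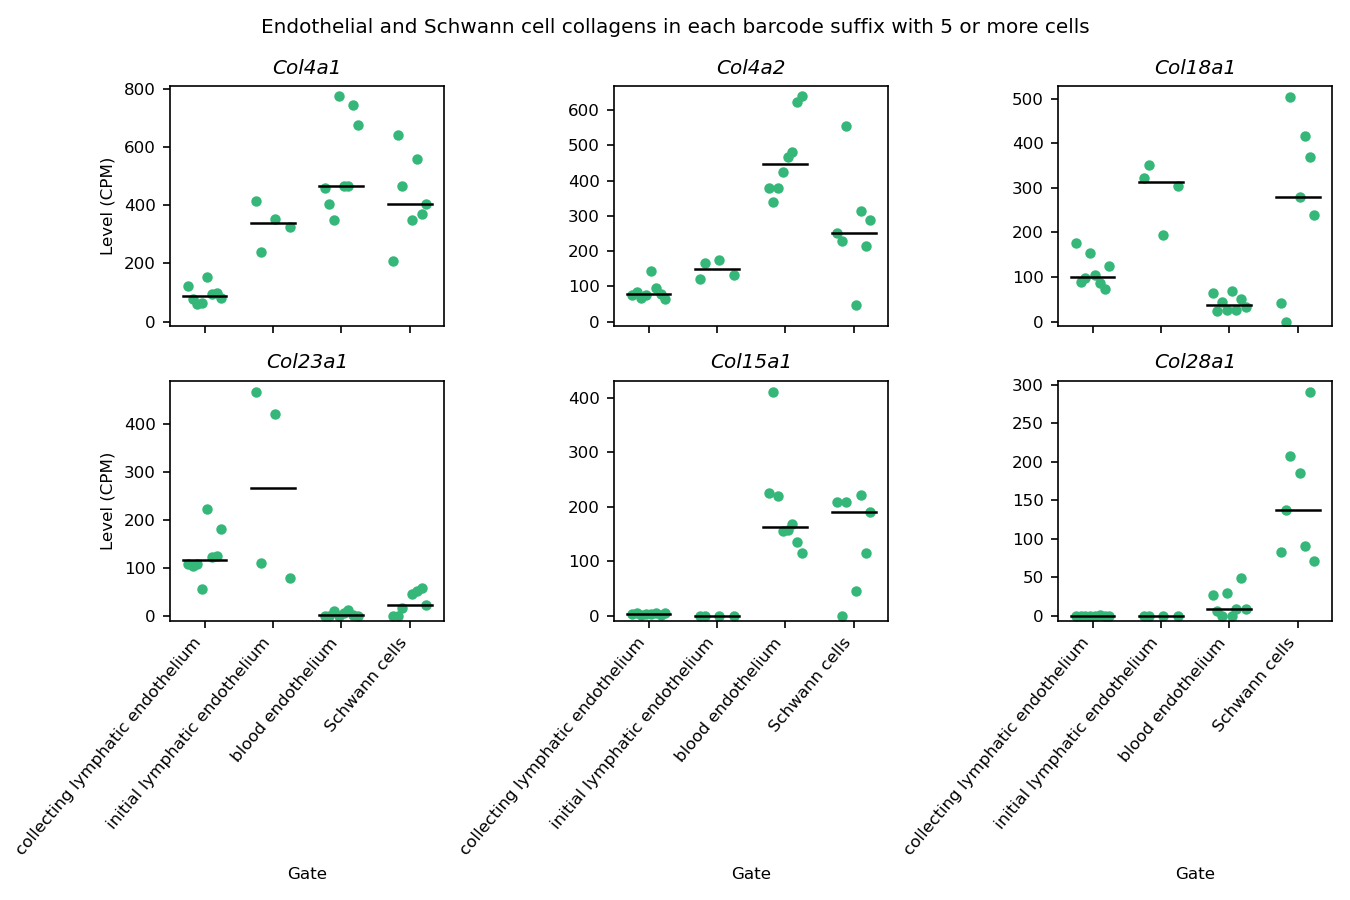
Levels (CPM) of 6 collagen genes in collecting lymphatic, initial lymphatic and blood endothelium and in Schwann cells, in each suffix with 5 or more cells (points) with the median (line). Col15a1 is above 100 CPM in blood and below 10 CPM in both kinds of lymphatic endothelium, and Col23a1 shows the opposite order.

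Initial lymphatics are the blind-ended absorbing vessels, and their endothelium is known for a sparse basement membrane. The 59 cells of that gate were set by Lyve1 and Ccl21a. They had 2 collagen genes at least 2-fold higher than collecting endothelium, beside 9.26% of all genes, and 1 lower, beside 7.65%. Col4a1 was at 240.3, 339 and 414 CPM over 4 suffixes, above the whole range of collecting endothelium, and the ratio was 3.26 (2.78 to 3.81). Col18a1 was 2.48-fold higher (2.11 to 2.91). Col4a2 did not follow, at 126 against 82.9 CPM. Col12a1 had 113 UMIs in collecting and none in initial endothelium, at least 4.84-fold lower with the floor of 3 counts. The count of higher genes was 8 when doublets were kept.

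Schwann cells led every other gate by 2-fold or more for 5 collagens, as many as basal epithelium did. Col28a1, known from peripheral nerve, was at 71.6, 138 and 291 CPM over 7 suffixes, and the next gate, blood endothelium, was at 19.0 CPM (8.36-fold, 5.25 to 13.5). It was present in 28.6% of Schwann cells and 0 of 623 T and B cells, at median depths of 3431 and 4921 UMIs, and in 14.6% after thinning. Col27a1 was at 163, 329.8 and 404 CPM, 3.29-fold above the next gate (2.56 to 4.19), and was highest in 7 of 7 suffixes. Col11a1 was at 137 CPM (4.79-fold, 3.12 to 7.33), Col24a1 at 59.2 CPM from 19 UMIs (29.2-fold, 13.4 to 65.9) and Col20a1 at 65.5 CPM from 21 UMIs (4.88-fold, 2.95 to 7.70). Col16a1, a fibril-associated chain, was at 184 CPM beside 156 CPM in basal epithelium.

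The 84 cells of the Schwann gate lay in 2 clusters built without collagens. The first held 43 of them and had Cadm2, Cdh19 and Gfra3 among its 10 leading genes, and the second held 41 and had Prx and Mbp, genes of the myelin sheath, among its own. Over the gate's cells alone, Col11a1 was at 245 CPM in the first from 44 UMIs and had none in the second. Col27a1 was at 528 and 35.5 CPM, Col18a1 at 545 and 42.6 CPM and Col16a1 at 317 and 14.2 CPM. Col24a1 had none in the first and was at 135 CPM in the second from 19 UMIs. Col28a1 was found in both, at 117 and 213 CPM with overlapping intervals (72.3 to 178 and 144 to 304). The clusters were described on the same cells, so these values carry no test.

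Basal epithelium held the collagens of the epithelial anchoring complex. Col17a1, the transmembrane collagen of hemidesmosomes, was at 213, 258 and 379.8 CPM over 4 suffixes against 1.49 CPM in luminal epithelium (185-fold, 84.3 to 506). Col7a1, the anchoring fibril that ties the basement membrane to the dermis, was at 35.8, 87.0 and 128 CPM, and the next gate had 1.84 CPM (46.0-fold, 17.6 to 171). Col17a1 was present in 84.4% of basal cells and 0 of 623 T and B cells, at median depths of 10456 and 4921 UMIs. Col4a6 was at 156, 232 and 303 CPM (2.84-fold above mesothelium, 2.52 to 3.19) and Col4a5 at 164 CPM beside 115 CPM in vascular muscle. The cartilage chains Col9a2 and Col9a3 were at 64.2 and 69.3 CPM, whereas Col9a1, their partner, had 6 UMIs. Col9a2 was 32.2-fold above the next gate (15.8 to 76.5). Luminal epithelium had 111 CPM of Col4a5, 77.4 CPM of Col4a6 and 81.9 CPM of Col8a1, with Col4a1 at 15.2 CPM, the lowest of the gates and below the 38.1 CPM of T and B cells.

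Chains that assemble into 1 molecule were compared as UMI ratios within a gate. The pair Col3a1 and Col1a1 was added, although these chains belong to separate molecules, types III and I. Gene length and priming differ between chains, so a ratio is not a ratio of molecules and only its change between gates was read. For 6 pairs, 61 combinations of pair and gate had 100 UMIs of both chains, and 54 lay within 1.5-fold of the ratio over all gates. That ratio includes each gate's own UMIs and lay near that of all fibroblasts, at 0.712 and 0.717 for Col1a1 to Col1a2. The part of free fibroblast RNA in the other gates was not tested, and no share over other gene pairs was computed. The 54 therefore do not measure agreement between cell types. Col1a1 to Col1a2 ran from 0.601 in lymphatic muscle to 0.800 in Ngfr fibroblasts among gates with 100 UMIs of both. Col6a1 to Col6a2 was 1.38 in Pi16 fibroblasts, 1.17 in lymphatic muscle and 1.22 in mesothelium.

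The third type VI chain departed from its partners. Col6a3 to Col6a1 was 0.685 in all fibroblasts (0.607 to 0.792 over 8 suffixes), 0.697 in lymphatic muscle and 0.155 in mesothelium (0.132 to 0.212 over 8 suffixes). Mesothelium lay below the fibroblast range in every suffix. The ratio was 1.14 in Ngfr fibroblasts. In vascular muscle it was 3.55 (2.68 to 4.76), from 227 and 64 UMIs, and both Col6a1 and Col6a2 were there below the T and B cell levels of 62.5 and 48.4 CPM.

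Type III to type I also shifted. Col3a1 to Col1a1 was 1.22 in Tspan11 fibroblasts (0.988 to 1.80 over suffixes), 1.65 in Pi16, 1.48 in Col8a1 and 2.68 in Tcf21 fibroblasts (2.12 to 2.92). It was 2.91 in lymphatic muscle (2.42 to 3.66 over suffixes) and 2.53 in mesothelium (2.16 to 3.12). The suffix ranges of Tspan11 and Tcf21 fibroblasts did not overlap. T and B cells had 1.67 (1.53 to 1.81), near the 1.64 of all fibroblasts. Col5a1 to Col5a2 was 0.315 in lymphatic muscle (0.231 to 0.382 over suffixes) and 0.596 in all fibroblasts (0.498 to 0.699). Col4a1 to Col4a2, the head-to-head pair, was 1.55 in all fibroblasts, 0.953 in lymphatic muscle and 2.35 in initial lymphatic endothelium (1.85 to 3.02).

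**Figure D5:**
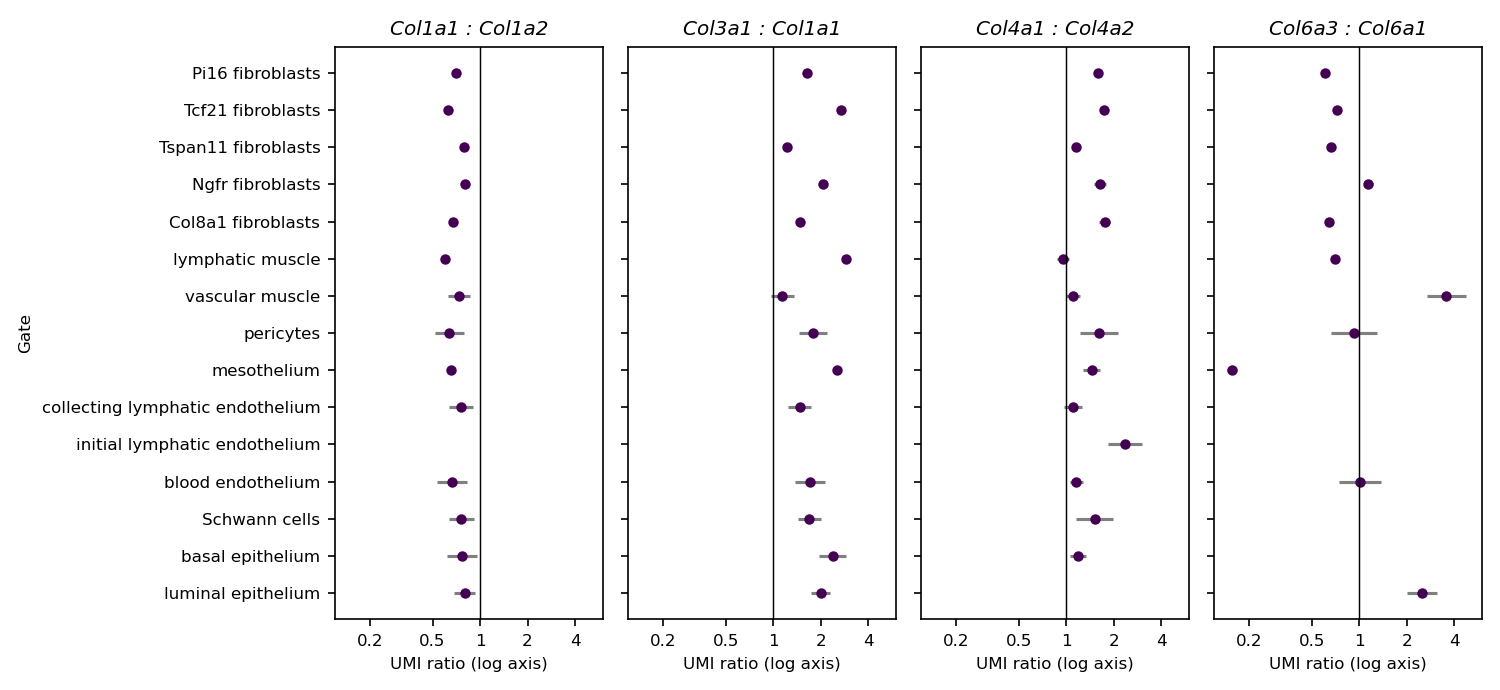
Ratios of UMIs between chains (points, log axis) with 95% counting intervals (lines) in each gate with at least 50 UMIs of both chains. Col1a1 to Col1a2 stays between 0.601 and 0.800 in every gate shown, while Col6a3 to Col6a1 runs from 0.155 in mesothelium to 3.55 in vascular muscle.

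Genes that modify, fold, trim, cross-link or bind collagen were counted by list, beside the 13.0% of all genes that were higher in fibroblasts and the 15.5% higher in mural cells. Between fibroblasts and mural cells, 5 of 5 lysyl oxidases were at least 2-fold higher in fibroblasts and none in mural cells. Loxl1 was at 313 against 44.8 CPM, Loxl2 at 150.4 against 37.1 CPM and Lox at 92.0 against 26.1 CPM. Of 8 propeptide-processing genes 5 were higher and 0 lower, with the enhancer Pcolce at 762 against 202 CPM and the C-proteinase Bmp1 at 193 against 50.6 CPM. Of 6 chaperones and export factors 3 were higher and 0 lower, and Serpinh1, the collagen chaperone HSP47, was at 1407 against 559 CPM.

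Hydroxylases were mixed, with 5 of 15 higher and 1 lower. Plod2 was at 72.6 against 25.2 CPM and P4hb at 215 against 81.9 CPM. P3h2, a prolyl 3-hydroxylase known to act on type IV chains, was at 1.58 CPM in fibroblasts and 67.6 CPM in mural cells, and at 257 CPM in pericytes, 203 CPM in Schwann cells and 60.1 CPM in blood endothelium. T and B cells held 0.718 CPM of P3h2, and Tcf21 fibroblasts, the subset with the most Col4a1, held 1.08 CPM. Fibril-binding proteoglycans were 4 of 6 higher and 0 lower, led by Dcn at 14726 against 1432 CPM and Lum at 559 against 69.5 CPM. Dcn and Lum are among the markers counted by the fibroblast gate, so their difference was partly set by that gate. Basement membrane partners were 4 of 7 higher and 0 lower, with Nid1 at 691 against 77.6 CPM and Lamb1 at 121 against 10.1 CPM.

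Collagen receptors divided by cell type, with 4 of 9 higher in fibroblasts and 3 higher in mural cells. Itga1, the integrin chain that binds type IV collagen, was at 10.5 CPM in fibroblasts and 761 CPM in mural cells, of which lymphatic muscle had 846 and vascular muscle 332 CPM. Itga11, which binds fibrillar collagen, was at 80.6 against 9.42 CPM. In endothelium, Itga1 was at 327 CPM in blood and 29.5 CPM in lymphatic cells, and within the latter at 112 CPM in initial and 19.0 CPM in collecting endothelium. T and B cells held 21.3 CPM of Itga1, near the level of collecting endothelium. They were taken as background because they should make no collagen, so their level of a receptor gene need not be free RNA.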

How the data were processed

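The authors deposited raw UMI counts per gene and barcode, and per the file headers the matrix came from Cell Ranger 7.1.0. Seurat 4.3.0.1 and mm10 are listed, with no role, in the submitters' processing notes. The sources used here give neither the library kit nor the annotation. Barcodes with at least 500 UMIs, 300 genes and under 15% mitochondrial UMIs were kept (380 removed), and 724 doublets (3.06%) were removed with scanpy 1.11.5 (Scrublet), leaving 22942 cells with a median of 8688 UMIs. Gene UMIs totalled 232753017, or 2375 to 3315 barcodes per suffix. Cells were gated by markers of each type, and the counting rule was written after marker levels had been seen by cluster. Listed markers that did not separate lymphatic from vascular muscle were not used. Counts were summed per gate and divided by its gene UMIs. Intervals are exact Poisson, binomial or conditional binomial (95%, counting error only). A difference was counted at 2-fold or more with 10 CPM or more in the higher group; a group without UMIs was set to 3 counts. The fold rule was tested on simulated data. The members, gene lists and comparisons were chosen with earlier results of these data known. Every member was accounted for; genes named in a comparison passed the 2-fold rule, or show the level of a partner chain. With 1 pooled sample no test was run.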

Additional observations from a re-analysis of the deposited data

Results flagged for a closer look

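In 1 cluster of 190 cells, 140 of which fell in no gate, 2 collagens were at a higher level than in any of the 15 gates. The cluster was led by Sfrp5, Tenm2, Lypd2, Hcn4, Itgb4 and Cldn1. It carried markers of several lineages, with Dcn in 99.5%, Krt19 in 62.6%, Cdh5 in 54.2% and Pdgfra in 40.5% of its cells. It is given no name here, and the setting with clusters in place of gates counted it with the Ngfr fibroblasts by its marker score. Col4a4 was at 102 CPM (86.1 to 119.5, 149 UMIs), against at most 37.4 CPM in a gate and 2.16 CPM in T and B cells. Col4a3, its head-to-head neighbour, was at 45.1 CPM (34.9 to 57.4, 66 UMIs), and its interval includes the highest gate, at 36.9 CPM. A Col4a4 UMI was present in 41.1% of these cells and 0.642% of T and B cells, at median depths of 6895 and 4921 UMIs. A Col4a3 UMI was present in 38 of the 190 cells and in 0.482% of T and B cells. Col4a5, their partner in the specialised network, was at 19.1 CPM. Of the 190 cells 116 carried suffixes 1 to 4.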

How the results depend on the processing

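For 106 collagen differences by gene, 894 values were computed under other settings, and 884 kept their direction. Direction was kept in 106 of 106 values with a stricter barcode filter and with the mean of each cell's CPM. It was kept in 30 of 30 with 2 UMIs of the subset marker and in 101 of 101 in suffixes 1 to 4. Leaving collagen UMIs out of the total kept 106 of 106, and subtracting the T and B cell level kept 99 of 99. Neither of these could reverse a 2-fold difference, though their values count towards the 884. The same level was subtracted from both groups, and collagens were at most 2.39% of a gate's UMIs. A further 14 gave no value, because a group left at 0 had a floor of 3 counts above the other group's level, or both were at 0. Among them were Col6a6 and Col19a1 in the 9 pericytes of suffixes 1 to 4 and Col12a1 in the 4 Ngfr fibroblasts of suffixes 5 to 8. The 10 reversals (log2 ratios) follow. With clusters in place of gates, pericytes against muscle gave 1.31 for Col4a5, 0.87 for Col6a5, 1.31 for Col6a6, -1.24 for Col18a1 and -0.79 for Col25a1, and Col8a1 fibroblasts gave -4.45 for Col11a1. With 2 markers per subset the last was -2.41. Pericytes gave 0.00 for Col6a6 with doublets kept. In suffixes 5 to 8 alone Col6a5 was -2.08 in Pi16 and 2.02 in Tcf21 fibroblasts. The cause was not tested.

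Counts of collagens past 2-fold moved by over 1.5 times in these cases. Genes higher in initial lymphatic endothelium numbered 2, and 8 with doublets kept, 5 with clusters, 4 with cell means and 5 in suffixes 1 to 4; those higher in collecting endothelium numbered 1, and 3 in suffixes 5 to 8 and 0 at a minimum of 50 CPM. Genes higher in pericytes numbered 11, and 7 in suffixes 1 to 4 and at 50 CPM; those higher in muscle numbered 4, and 2 with clusters and 2 in suffixes 1 to 4. Genes higher in blood endothelium numbered 13, and 6 after the T and B cell level was subtracted. This removes chains at or below the T and B cell level, among them the fibrillar Col1a1, Col1a2, Col3a1 and Col5a3 and the beaded-filament Col6a1 and Col6a2. Genes higher in lymphatic endothelium numbered 4, and 2 at 50 CPM, and those higher in mural cells 5, and 3 at 50 CPM. Counts by fibroblast subset follow. Higher in Ngfr fibroblasts were 6, and 3 with clusters, 3 in suffixes 1 to 4 and 10 in suffixes 5 to 8 (4 cells); lower were 2, and 4 with 2 UMIs of the marker and 1 at 50 CPM. Higher in Tcf21 fibroblasts were 4, and 7 in suffixes 5 to 8; lower were 4, and 2 with clusters and 2 in suffixes 5 to 8. Higher in Pi16 fibroblasts were 3, and 1 with 2 markers; lower were 4, and 7 with clusters. Higher in Tspan11 fibroblasts were 0, and 3 with 2 UMIs of the marker, 1 with 2 markers and 1 in suffixes 5 to 8. Lower in them were 5, and 8 with 2 markers, 3 in suffixes 5 to 8 and 3 at 50 CPM. Higher in Col8a1 fibroblasts were 2, and 0 with 2 markers, 1 in suffixes 1 to 4, 4 in suffixes 5 to 8 and 1 at 50 CPM. Lower in them were 0, and 5 with clusters, 2 with 2 markers, 1 with the T and B cell level subtracted and 2 in suffixes 1 to 4. The collagen share of fibroblast UMIs was 1.94%, and 1.91% with clusters, 1.73% in suffixes 1 to 4 and 2.14% in suffixes 5 to 8; settings for this share were added after the data were seen. No paired analysis was possible because no barcode is tied to a mouse. Pericytes (35 cells), initial lymphatic endothelium (59) and Schwann cells (84) limit the depth, and a collagen with few UMIs there was not detectable rather than absent.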
